A study of Rattus norvegicus with 16 samples.

Results

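Kupffer cells are the resident macrophages of the liver sinusoids, and bone marrow holds its own macrophages, among them those at the centre of erythroblastic islands. Out of the 32623 genes of the deposited table, the values of 10 marker genes of these cells were followed, and all 10 were found there. They were chosen by name, with earlier results of these data known. The rats were female and of the Big Blue strain, and every group carried the same transgene, a vector with cII and lacI reporter genes used in mutation assays. They arrived at 6 weeks of age, acclimated for 1 week and were then gavaged once a day for 28 days, 3 rats to a cage and 6 to a dose group, with tissue taken 3 days after the last dose. The 4 groups were liver of rats given 10 mg/kg/day N-nitrosodiethylamine (NDEA), liver of controls given 0 mg/kg/day, marrow of NDEA rats and marrow of controls, with 4 libraries each. NDEA is a nitrosamine that cytochrome P450 enzymes of the liver turn into a DNA-alkylating agent. The labels do not tie a library to a rat, so p-values measure the spread between libraries.

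Macrophages depend on CSF1R, the receptor for the growth factors CSF1 and IL34. Kupffer cells take up particles and microbes from portal blood with a set of surface receptors. MARCO is a class A scavenger receptor that binds bacteria and particles, VSIG4 is a complement receptor for C3b and iC3b, and CLEC4F is a C-type lectin that in mice and rats is found on Kupffer cells. CD163 takes up haptoglobin-haemoglobin complexes, CD68 is a glycoprotein of lysosomal and endosomal membranes, and CD5L is a secreted scavenger-type protein made by tissue macrophages. C1QA, C1QB and C1QC are the chains of C1q, the recognition part of the first complement component, and macrophages are a main source of it.

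Each gene has 1 position in the deposited table, on a build that it does not name. C1qb, C1qc and C1qa lie next to each other on chromosome 5, at 155246447, 155255005 and 155261250. Vsig4 lies on chromosome X (65370851), Clec4f and Cd163 on chromosome 4 (115322291 and 156752082), Cd5l on chromosome 2 (186685104), Cd68 on chromosome 10 (56268720) and Csf1r on chromosome 18 (56414488). Marco is placed on chromosome 16 (85115201) there, whereas RefSeq's GRCr8 assembly has Marco on chromosome 13, so the record named Marco (ENSRNOG00000049303) is less certain than the others. The other 9 have the same chromosome in both.

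Start regions are shown for Vsig4, the marker called lower in liver, and for Csf1r, C1qa and C1qb, whose values library by library in marrow are set out below although none passed the test there. Marco, called higher in liver, is left out because its record and RefSeq place it on different chromosomes. Each window is 300 bases from RefSeq (GRCr8), 250 before and 50 after the start, read on the gene's strand. They are chrX:65179659-65179958 (minus strand) for Vsig4, chr18:56834129-56834428 (plus) for Csf1r, chr5:154419884-154420183 (minus) for C1qa and chr5:154407778-154408077 (minus) for C1qb. Capitals mark the letters GAGGAA, a core bound by the macrophage factor PU.1, and TGCTGA, a half-site of MAF factors, on either strand, so TTCCTC and TCAGCA are the same motifs read on the other strand. No match of one overlapped a match of the other.
Vsig4: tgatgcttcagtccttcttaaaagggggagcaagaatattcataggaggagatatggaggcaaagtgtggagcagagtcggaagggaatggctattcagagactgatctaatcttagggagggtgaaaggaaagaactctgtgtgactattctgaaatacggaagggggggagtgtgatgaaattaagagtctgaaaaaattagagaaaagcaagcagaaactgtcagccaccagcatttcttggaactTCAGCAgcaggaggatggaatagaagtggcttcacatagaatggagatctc
Csf1r: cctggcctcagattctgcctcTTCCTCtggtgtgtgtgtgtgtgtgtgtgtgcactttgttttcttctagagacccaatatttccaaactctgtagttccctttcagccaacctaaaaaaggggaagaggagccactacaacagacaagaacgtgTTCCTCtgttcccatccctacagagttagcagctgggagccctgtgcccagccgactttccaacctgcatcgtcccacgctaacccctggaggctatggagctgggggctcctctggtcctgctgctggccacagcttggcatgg
C1qa: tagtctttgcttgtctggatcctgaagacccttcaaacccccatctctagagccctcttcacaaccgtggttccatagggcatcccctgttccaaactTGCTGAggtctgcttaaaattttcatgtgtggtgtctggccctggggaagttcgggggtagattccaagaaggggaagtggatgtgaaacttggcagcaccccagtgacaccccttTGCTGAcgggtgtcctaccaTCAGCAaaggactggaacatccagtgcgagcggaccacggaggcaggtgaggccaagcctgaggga
C1qb: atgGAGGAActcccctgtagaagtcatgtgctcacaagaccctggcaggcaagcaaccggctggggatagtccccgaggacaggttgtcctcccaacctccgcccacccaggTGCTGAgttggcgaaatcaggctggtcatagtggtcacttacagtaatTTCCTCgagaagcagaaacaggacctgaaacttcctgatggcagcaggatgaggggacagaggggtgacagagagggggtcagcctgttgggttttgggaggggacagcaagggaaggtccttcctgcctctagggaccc
Csf1r held 2 matches to GAGGAA and none to TGCTGA, and Vsig4 held 1 match to TGCTGA, at its start site. C1qa held TGCTGA 3 times and no GAGGAA, while C1qb held GAGGAA 2 times and TGCTGA 1 time. Of the 9 markers with a RefSeq window, GAGGAA was in 5 and TGCTGA in 5, against 27.6% and 18.4% of all 33469 windows. The window of Marco, whose record is less certain, is counted among the 9 and among those with GAGGAA. The AP-1 motif TGANTCA was in the window of Cd68 alone among the 9, and in 7.3% of all windows.

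Liver libraries held 5000844 to 6863592 counts and marrow libraries 2162182 to 5705705. Marrow control 1 had the fewest, and the next lowest marrow library, NDEA 1, had 4394984. The share of counts from mitochondrial genes was 20.09% to 22.36% in NDEA liver and 16.21% to 20.58% in control liver, and 8.37% to 15.78% in NDEA marrow and 6.41% to 13.01% in control marrow. In marrow it was highest in NDEA 3, NDEA 4 and control 3, and NDEA 4 detected the fewest genes (9101). Levels below are CPM, counts brought to a common library total that was scaled within each tissue. Where untreated liver and marrow are compared, it was scaled over both tissues. The libraries read transcript 3' ends, so a level is not divided by gene length.

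In NDEA liver 1 of the 10 markers, Marco, was higher and 1, Vsig4, was lower, while Clec4f, Cd163, Cd68, Cd5l, C1qa, C1qb, C1qc and Csf1r did not pass the test. The call is an adjusted p below 0.05 from limma-voom, adjusted over all 9668 genes tested, and 6.61% of these were called, 2.87% higher and 3.74% lower. The median log2 fold change was -0.0005 over the 10 markers and 0.012 over all tested genes. In whole tissue, fewer macrophages and less RNA of a marker per macrophage cannot be told apart.

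Marco stood at 177, 160.5, 130.4 and 119 CPM in NDEA liver, against 90.4, 129, 81.7 and 75.0 CPM in control liver. The groups overlapped by 1 library, control 2, which was above NDEA 4. The means were 146.6 ± 26.6 CPM in NDEA liver and 94.0 ± 24.2 CPM in control liver (SD, n = 4 each), a log2 fold change of 0.64 (SE 0.17, 95% interval 0.29 to 1.00, 1.56-fold, limma-voom adjusted p = 0.0238). This call rests on few libraries: it ended when control 1, 3 or 4 or NDEA 1 or 2 was left out (adjusted p of 0.0542, 0.0958, 0.102, 0.0812 and 0.0730, limma-voom).

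Vsig4 stood at 35.6, 17.3, 37.8 and 24.9 CPM in NDEA liver, against 59.0, 58.5, 53.5 and 46.8 CPM in control liver. Every NDEA library was below every control library, a separation in that direction that 5.98% of tested genes had. The means were 28.9 ± 9.59 CPM in NDEA liver and 54.5 ± 5.66 CPM in control liver (SD, n = 4 each), a log2 fold change of -0.94 (SE 0.24, 95% interval -1.43 to -0.45, 0.521-fold, limma-voom adjusted p = 0.0145). The call ended without NDEA 2 or NDEA 4 (limma-voom adjusted p of 0.0660 and 0.0524), with log2 fold changes of -0.75 and -0.88.

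The counts of Marco divided by those of Vsig4, which need no scaling, were 4.96, 9.29, 3.45 and 4.78 in NDEA liver and 1.53, 2.21, 1.53 and 1.60 in control liver. All 4 NDEA ratios lay above all 4 control ratios. As both genes were called, the ratio describes them and adds no test.

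The mitochondrial share was higher in NDEA than in control livers, apart from control 2. It was 20.93%, 21.17%, 20.09% and 22.36% in NDEA liver 1 to 4 and 16.21%, 20.58%, 17.36% and 17.91% in control liver 1 to 4. Within NDEA liver, NDEA 4 had the highest share and the lowest Marco value, 119 CPM. Control 2, the control with a share inside the NDEA range, had Vsig4 at 58.5 CPM, within the control range, and Marco at 129 CPM, within the NDEA range. With the share as a covariate neither gene was called: Marco had a log2 fold change of 0.38 (limma-voom adjusted p = 0.676) and Vsig4 of -0.81 (limma-voom adjusted p = 0.390). That fit called 148 genes in all, against 639 without the covariate. As the share largely went with treatment, that fit cannot tell their effects apart.

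**Figure D1:**
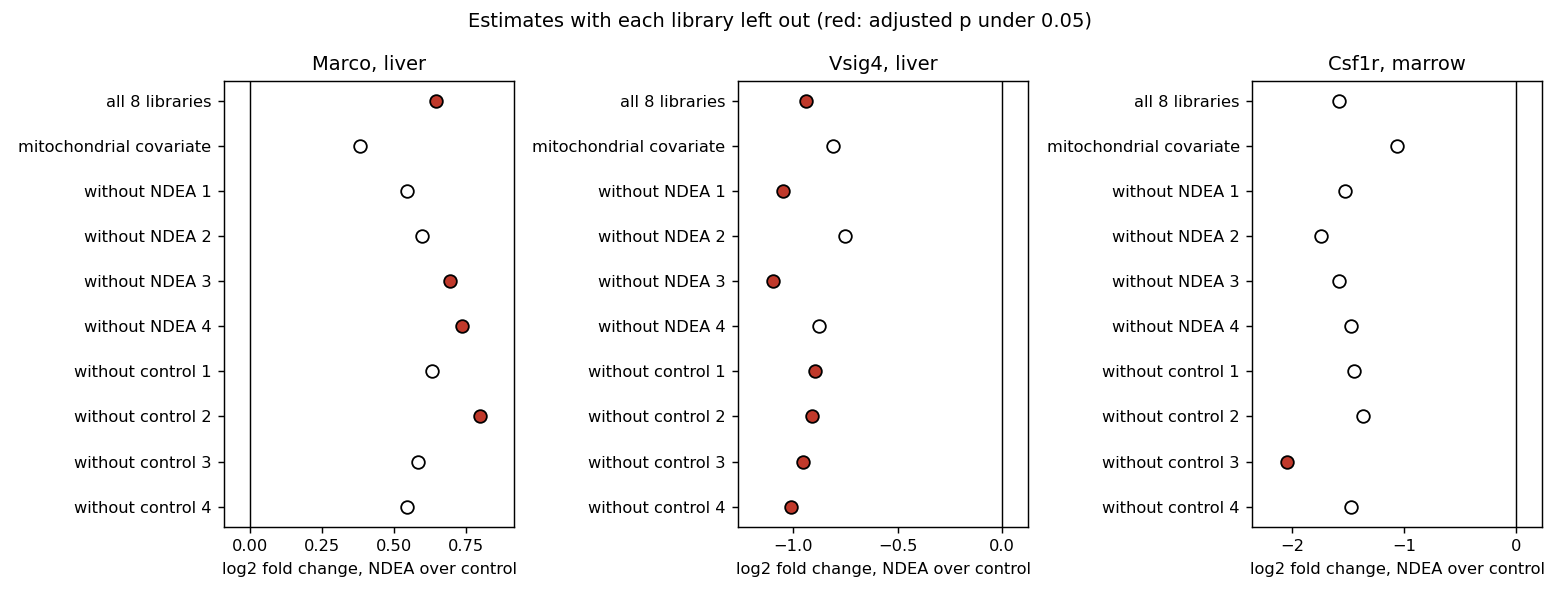
Log2 fold changes (x axis) of Marco and Vsig4 in liver and of Csf1r in marrow, NDEA over control, with all 8 libraries, with the mitochondrial share as a covariate and with each library left out (y axis); red points have an adjusted p under 0.05. Marco spans 0.55 to 0.80 and Vsig4 -1.10 to -0.75 with a library left out, and Csf1r is called only without control 3, at -2.05.

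The other receptors gave intervals around no change in liver. Clec4f stood at 85.6, 109, 111 and 85.9 CPM in NDEA liver and 111, 112, 89.1 and 85.0 CPM in control liver, so the groups lay over each other. Its log2 fold change was -0.031 (95% interval -0.36 to 0.30, limma-voom adjusted p = 0.946). Cd163 stood at 51.2, 46.1, 23.9 and 30.4 CPM in NDEA liver and 30.4, 37.5, 34.8 and 48.7 CPM in control liver. The means were 37.9 ± 12.9 CPM in NDEA liver and 37.8 ± 7.78 CPM in control liver (SD, n = 4 each), with an interval of -0.58 to 0.46 (limma-voom adjusted p = 0.936). Cd5l averaged 131 ± 19.8 CPM in NDEA liver and 118 ± 17.99 CPM in control liver (SD, n = 4 each; log2 fold change 0.15, limma-voom adjusted p = 0.662).

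Cd68, the lysosomal glycoprotein, stood at 29.0, 40.8, 28.4 and 19.0 CPM in NDEA liver, against 19.5, 26.4, 12.3 and 23.8 CPM in control liver. Of the markers not called it had the largest estimate, a log2 fold change of 0.49, with an interval of -0.12 to 1.11 and overlapping groups (limma-voom adjusted p = 0.402). Csf1r averaged 34.3 ± 9.02 CPM in NDEA liver and 34.9 ± 7.89 CPM in control liver (SD, n = 4 each), and its log2 fold change of -0.045 had an interval of -0.55 to 0.46 (limma-voom adjusted p = 0.951).

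The C1q chains had the narrowest intervals of the set in liver. C1qa averaged 136 ± 18.5 CPM in NDEA liver and 117 ± 10.9 CPM in control liver (SD, n = 4 each; log2 fold change 0.20, interval -0.10 to 0.50, limma-voom adjusted p = 0.494). C1qb averaged 115 ± 16.5 CPM in NDEA liver and 113 ± 19.0 CPM in control liver (SD, n = 4 each; 0.023, interval -0.30 to 0.34, limma-voom adjusted p = 0.960). C1qc averaged 123 ± 7.68 CPM in NDEA liver and 125 ± 11.9 CPM in control liver (SD, n = 4 each; -0.024, interval -0.31 to 0.26, limma-voom adjusted p = 0.952). For each chain, a log2 fold change as large as the estimate of Marco, 0.64, lies outside these intervals. The same holds for Clec4f, Cd163, Cd5l and Csf1r, but not for Cd68. The interval of Marco itself began at 0.29.

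**Figure D2:**
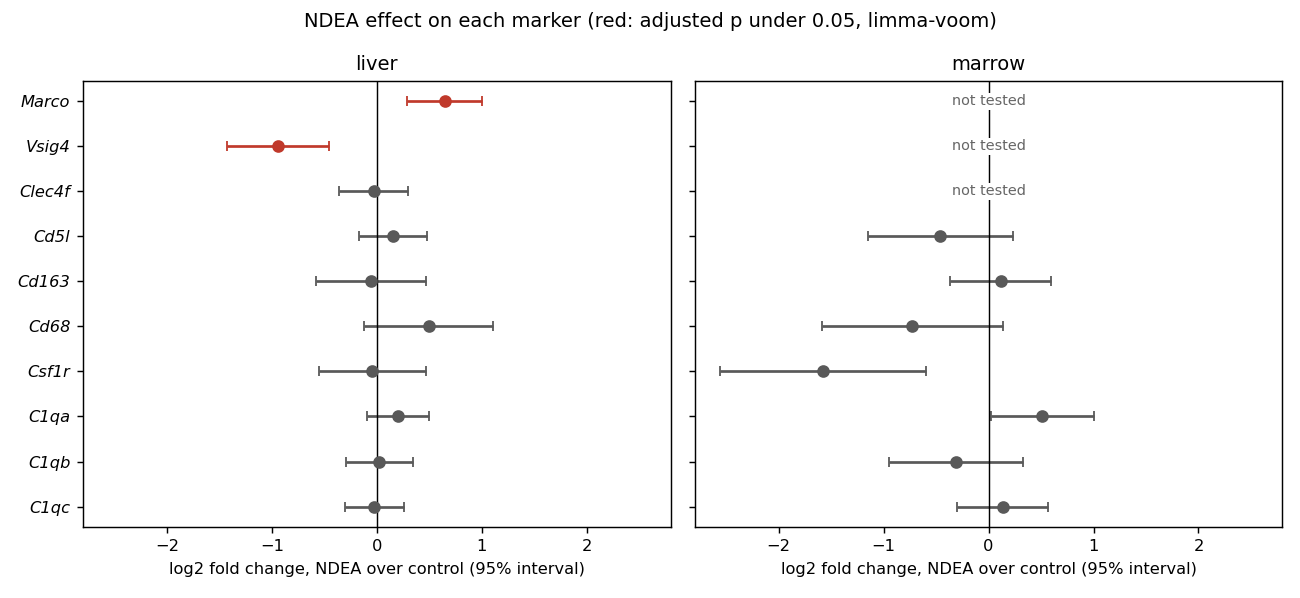
Log2 fold change with its 95% interval (x axis), NDEA over control, of each marker (y axis) in liver and in marrow; red marks an adjusted p under 0.05 by limma-voom. In liver Marco (0.64) and Vsig4 (-0.94) stand to either side of 0; in marrow Csf1r has the lowest estimate (-1.58) and Marco, Vsig4 and Clec4f were not tested.

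Marrow carried a different set of these markers. Marco and Vsig4 had 0 counts in all 8 marrow libraries, which over a group of 4 allows up to 0.149 CPM in NDEA marrow and 0.169 CPM in control marrow for a floor of 3 counts (counting error only). Clec4f had 0 counts in the 4 NDEA libraries and 2 counts in each of the 4 control libraries. These 3 did not pass the filter on low counts in marrow, and the other 7 were tested.

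Between untreated tissues, 7 of the 10 markers differed, where 66.1% of 10071 tested genes did (32.8% higher in liver, 33.4% lower). The receptors Marco, Vsig4 and Clec4f were the 3 that were higher in liver. Marco, at 102 CPM over the 4 control livers, was at least 669.7-fold higher there than in control marrow, and Vsig4, at 59.1 CPM, at least 389-fold higher, both set against 3 counts in the whole marrow group. Clec4f had 2304 counts in control liver and 8 in control marrow, a ratio of CPM of 266 (95% counting interval 135 to 617).

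Cd163 ran the other way. On the scale shared by both tissues it stood at 32.7, 40.7, 37.6 and 52.8 CPM in control liver, against 312, 218, 228 and 210.1 CPM in control marrow, with no overlap. Its log2 fold change was -2.55 with an SE of 0.22 (adjusted p = 7.22e-08 by limma-voom), and 29% of tested genes were lower in liver without overlap. Cd68 (-0.94, limma-voom adjusted p = 0.0202), C1qa (-0.57, 0.0227) and C1qb (-0.66, 0.0180) were also lower in liver than in marrow, each with overlapping groups. C1qc (-0.35, limma-voom adjusted p = 0.0874), Cd5l (0.46, 0.175) and Csf1r (0.16, 0.718) were not called. The calls of Cd68, C1qa and C1qb all ended when marrow control 2 or marrow control 4 was left out, with 4 markers then called. That of C1qa also ended without liver control 1 (limma-voom adjusted p = 0.0738), that of Cd68 without liver control 3 (0.0806) and that of C1qb without liver control 3 or 4 (0.0678 and 0.0577). C1qc was called, lower in liver, with library totals alone (-0.68, limma-voom adjusted p = 0.0049), with quality weights (-0.39, 0.0430) and without marrow control 3 (-0.42, 0.0338).

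**Figure D3:**
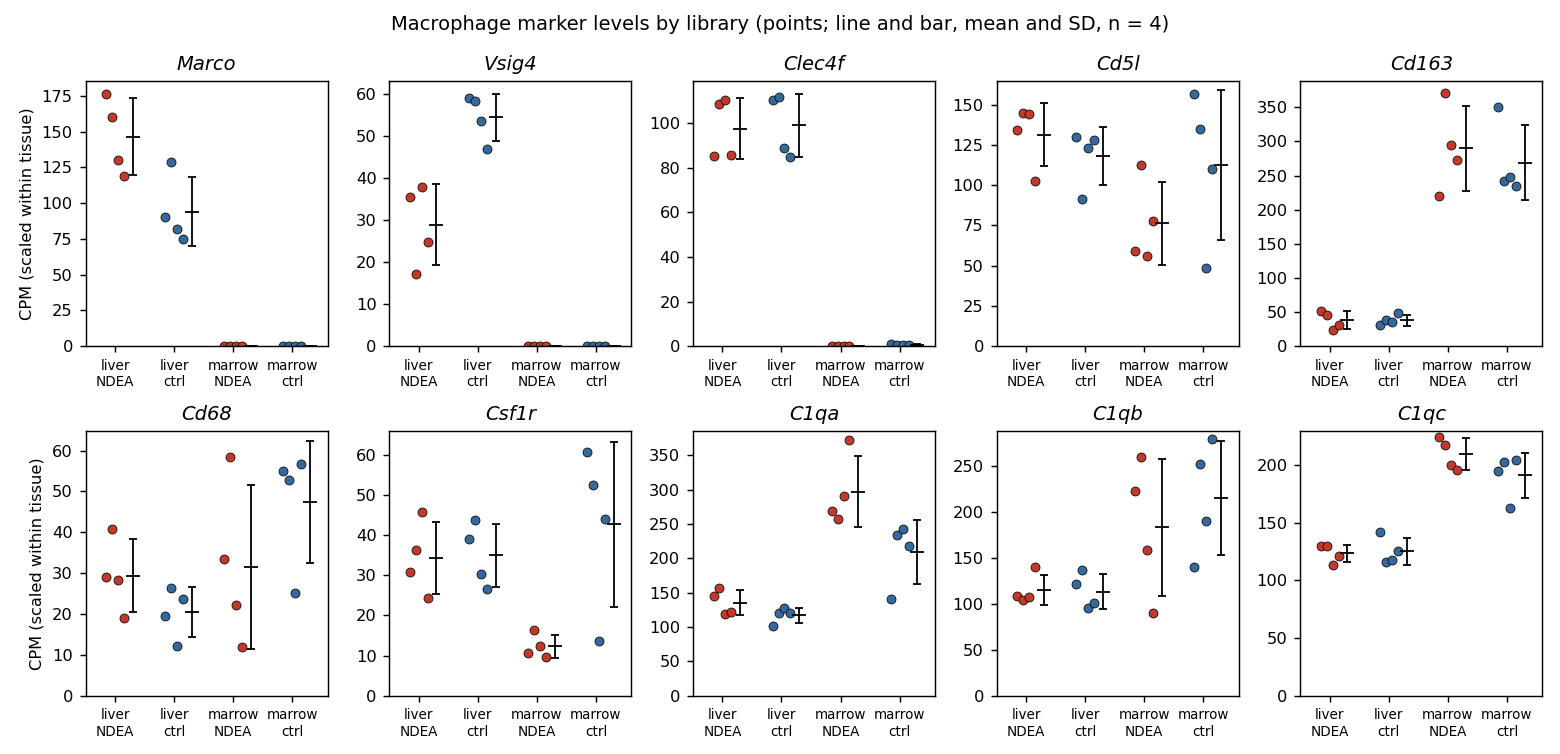
CPM (y axis, scaled within each tissue) of each marker in the 4 libraries of NDEA liver, control liver, NDEA marrow and control marrow (x axis); points are libraries, and lines with bars are means and SDs. Vsig4 separates NDEA liver (17.3 to 37.8) from control liver (46.8 to 59.0), Csf1r is at 13.5 CPM in 1 marrow control, and Marco and Vsig4 are at 0 in marrow.

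In marrow, 0 of the 7 tested markers were called with NDEA, as were 0% of all 9239 tested genes (limma-voom; 14.5% had an unadjusted p under 0.05). Csf1r and C1qa were the 2 of these 7 with an unadjusted p under 0.05. The median log2 fold change was -0.31 over the 7 and -0.10 over all tested genes.

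Csf1r stood at 10.7, 16.3, 12.5 and 9.69 CPM in NDEA marrow, against 60.8, 52.4, 13.5 and 44.0 CPM in control marrow. In 3 controls it was far above every NDEA library, and control 3 lay inside the NDEA range. The means were 12.3 ± 2.90 CPM in NDEA marrow and 42.7 ± 20.6 CPM in control marrow (SD, n = 4 each), a log2 fold change of -1.58 (SE 0.47, 0.335-fold, unadjusted p = 0.00335, limma-voom adjusted p = 0.247). Without control 3 it was called, at -2.05 (limma-voom adjusted p = 0.0080), in a fit that called 318 genes, and without control 3, NDEA 3 and NDEA 4 it was called at -1.92 (limma-voom adjusted p = 0.0086; 83 genes in all). With the replicate number as a block it was called at -1.76 (limma-voom adjusted p = 0.0108), with 289 genes called in all. Same-numbered libraries are not taken as pairs, so the block fit shows only how the call depends on processing.

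The mitochondrial share was 13.01% in control 3 and 6.41%, 8.65% and 7.24% in controls 1, 2 and 4. It was 11.30%, 8.37%, 15.16% and 15.78% in NDEA 1 to 4, so NDEA 1, 3 and 4 had larger shares than controls 1, 2 and 4. NDEA 2, with a share of 8.37%, had Csf1r at 16.3 CPM, and control 2, with a share of 8.65%, had it at 52.4 CPM. With the share as a covariate the log2 fold change of Csf1r was -1.07 (limma-voom adjusted p = 0.999), in a fit that called 1 gene in all. As the share went partly with treatment, that fit cannot tell share and treatment apart. Cells other than macrophages also carry CSF1R: the summed level of osteoclast markers was 198 to 381 CPM in NDEA marrow and 259.8 to 329 CPM in control marrow (0 of 6 tested called). Of this Mmp9 gave 238 ± 60.3 CPM in NDEA marrow and 205 ± 58.8 CPM in control marrow (SD, n = 4 each); it is also a neutrophil gene. Of the 6 tested osteoclast genes 4 had lower estimates and 2, Mmp9 and Oscar, had higher ones (median log2 fold change -0.71). Oscar, named after its values were seen, stood at 19.96 ± 11.5 CPM in NDEA marrow and 11.1 ± 7.08 CPM in control marrow (SD, n = 4 each; limma-voom adjusted p = 0.556). Acp5 stood at 8.47 ± 2.23 CPM in NDEA marrow and 28.7 ± 17.6 CPM in control marrow, and Ctsk at 12.9 ± 13.8 CPM in NDEA marrow and 36.9 ± 26.6 CPM in control marrow (SD, n = 4 each; limma-voom adjusted p of 0.455 and 0.329), both named after their values were seen. The summed level of monocyte and recruited-cell markers was 710 to 970 CPM in NDEA marrow and 746 to 1268 CPM in control marrow (0 of 14 called). Both sums overlapped between groups, and the part of these cells in the values of Csf1r was not tested.

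None of the chains of C1q was called in marrow. C1qa stood at 269, 258, 290.3 and 372 CPM in NDEA marrow, against 140.4, 235, 242 and 218 CPM in control marrow, and every NDEA library lay above every control, as for 2.57% of tested genes (log2 fold change 0.51, unadjusted p = 0.0397, limma-voom adjusted p = 0.322). C1qb stood at 223, 260.0, 159 and 90.2 CPM in NDEA marrow and 140.0, 252, 190.0 and 279 CPM in control marrow, with overlap (-0.31, limma-voom adjusted p = 0.637). C1qc spanned 196 to 224 CPM in NDEA marrow and 163 to 204 CPM in control marrow (0.13, limma-voom adjusted p = 0.782).

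As the C1q protein holds its 3 chains in equal number, their counts were also set against each other. The ratio of C1qa to C1qb counts was 1.21, 0.99, 1.83 and 4.13 in NDEA marrow and 1.00, 0.93, 1.28 and 0.78 in control marrow. It was highest in NDEA 4, then NDEA 3 and control 3, the 3 marrow libraries with the largest mitochondrial shares (15.78%, 15.16% and 13.01%). In liver the same ratio was 1.34, 1.51, 1.11 and 0.87 with NDEA and 0.84, 0.88, 1.34 and 1.19 in controls, with overlap. Without marrow NDEA 3 and 4, the log2 fold change of C1qb was 0.19 and that of C1qa 0.35. No chain was called there.

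**Figure D4:**
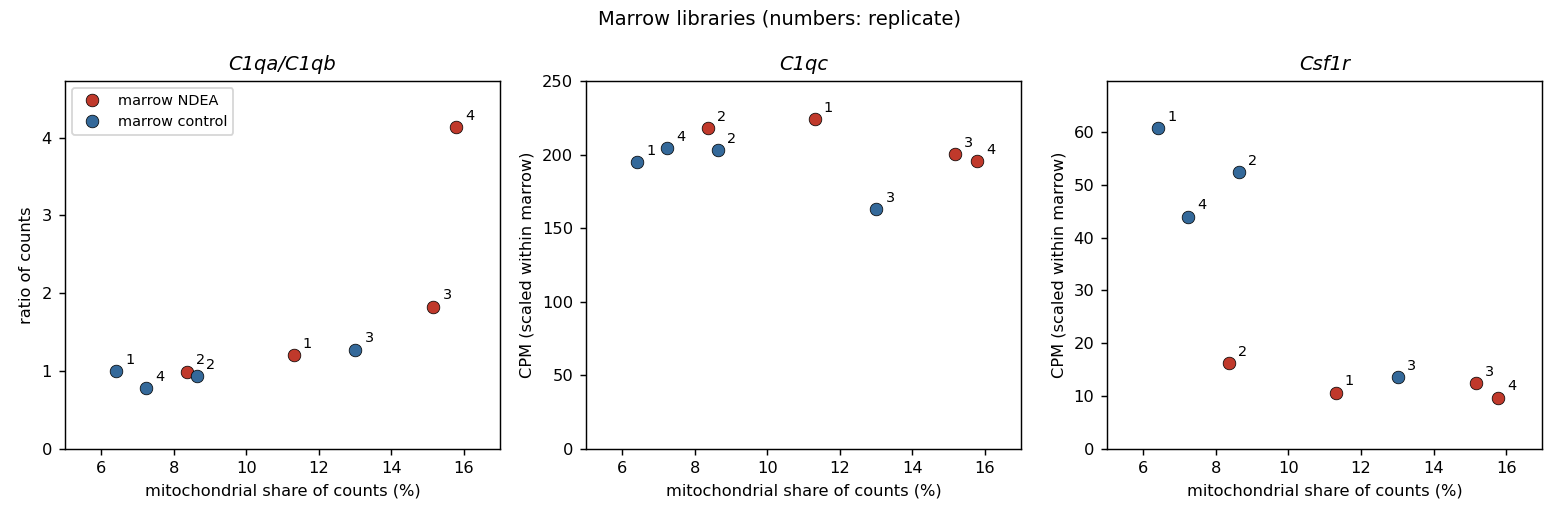
Ratio of C1qa to C1qb counts, C1qc CPM and Csf1r CPM (y axes) against the mitochondrial share of counts (x axes, percent) in the 4 NDEA and 4 control marrow libraries, numbered by replicate. The ratio reaches 4.13 at a share of 15.78%, C1qc stays between 163 and 224 CPM, and control 3 (share 13.01%) has Csf1r at 13.5 CPM beside the NDEA libraries.

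Of the remaining marrow markers, Cd68 stood at 33.4, 58.5, 22.2 and 11.9 CPM in NDEA marrow and 54.9, 52.7, 25.1 and 56.8 CPM in control marrow (log2 fold change -0.73, limma-voom adjusted p = 0.411). Its lowest values were again in NDEA 4, NDEA 3 and control 3. Cd5l averaged 76.3 ± 25.9 CPM in NDEA marrow and 113 ± 46.6 CPM in control marrow (SD, n = 4 each; -0.46, limma-voom adjusted p = 0.499), with control 3 the lowest library of all 8. Cd163 averaged 289.7 ± 62.5 CPM in NDEA marrow and 269 ± 55.0 CPM in control marrow (SD, n = 4 each; 0.11, limma-voom adjusted p = 0.834).

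The NDEA effect in liver was set against that in marrow with the treatment-by-tissue term of limma-voom. It was called for 0 of the 7 markers that passed the filter in both tissues and for 2.28% of 11261 tested genes (16.8% had an unadjusted p under 0.05). Csf1r had the smallest adjusted p of the 7, with a difference of 1.59 (SE 0.57, limma-voom adjusted p = 0.154), and it was called without marrow control 3 (1.99, limma-voom adjusted p = 0.0120). Cd68 had a difference of 1.29 (limma-voom adjusted p = 0.253). Over all tested genes the median difference was 0.32, and 233 of the 257 called were positive. Marco and Vsig4, with no marrow counts, and Clec4f, with 0 counts in NDEA marrow and 8 in control marrow, have no marrow effect to set against that of liver, and no difference is given for them.

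Genes known from the same cells were counted from lists. Beside these counts stand the median of 0.012 for all genes in liver and the 6.61% of all tested genes that were called. Of 15 tested further Kupffer cell genes 0 were called (median 0.16), and the most abundant were Lyve1, also a marker of sinusoidal endothelium, at 149.7 ± 4.21 CPM in NDEA liver and 133 ± 10.3 CPM in control liver, and C6, a complement component, at 149.6 ± 18.9 CPM in NDEA liver and 205 ± 38.9 CPM in control liver (SD, n = 4 each). Of 22 tested genes of macrophages in general 2 rose and 1 fell (median 0.27). Called or not, 19 had higher estimates and 3 lower ones. The summed level of this list was 1204 to 1336 CPM in NDEA liver and 1030 to 1158 CPM in control liver, without overlap. Fcer1g, the signalling chain of Fc receptors, rose 1.59-fold, Ptprc, the leukocyte antigen CD45, rose 2.06-fold, and Cd14, the lipopolysaccharide co-receptor, fell to 0.418-fold (limma-voom adjusted p of 0.0084, 0.0326 and 0.0042). Cd14 averaged 22.1 ± 7.12 CPM in NDEA liver and 52.0 ± 13.9 CPM in control liver (SD, n = 4 each). The call of Ptprc ended without control 1 or 3 or NDEA 2 or 4 (limma-voom adjusted p of 0.180, 0.0549, 0.0774 and 0.0626), while those of Fcer1g and Cd14 held with any 1 library left out. With all 16 libraries in one fit Cd14 was still called, but Fcer1g and Ptprc were not (limma-voom adjusted p of 0.145 and 0.0906). Of all the listed genes called in liver, those still called with the mitochondrial share as a covariate were the 5 MHC class II genes, Cr1l, Apoe, Apoa1 and Ttr.

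In a list of genes of lipid-laden and scar-associated macrophages, 3 of 12 rose and 2 fell (median 0.42). Gpnmb, a lysosomal membrane glycoprotein, averaged 69.4 ± 19.3 CPM in NDEA liver and 21.8 ± 4.37 CPM in control liver, a 3.09-fold rise (SD, n = 4 each; limma-voom adjusted p = 4.29e-04). Lgals3, galectin-3, averaged 95.3 ± 9.96 CPM in NDEA liver and 40.1 ± 13.4 CPM in control liver, a 2.49-fold rise (SD, n = 4 each; limma-voom adjusted p = 2.16e-04). Apoe and Lipa, which hepatocytes also express, fell to 0.784-fold and 0.691-fold. Fabp5, a fatty acid carrier, rose 1.66-fold; Fabp5 is the fifth by adjusted p and was named after its values were seen. With all 16 libraries in one fit Fabp5 and Apoe were not called (limma-voom adjusted p of 0.100 and 0.0939).

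Around CSF1R, 1 of 13 tested genes of its ligands, transcription factors and signalling rose (list median 0.37), where 6.61% of all tested genes were called. That gene was Irf8, a transcription factor of monocytes and dendritic cells. Irf8 averaged 70.5 ± 11.9 CPM in NDEA liver and 35.6 ± 9.72 CPM in control liver (SD, n = 4 each, 1.98-fold, limma-voom adjusted p = 0.0055). The Irf8 call also counts in the dendritic cell list, where it was the 1 of 4 tested that was called (median 0.38). With all 16 libraries in one fit Irf8 was not called (limma-voom adjusted p = 0.281). The ligand Csf1 stood at 6.92 ± 2.06 CPM in NDEA liver and 6.85 ± 2.37 CPM in control liver (SD, n = 4 each; limma-voom adjusted p = 0.961), and Csf1 was named after its values were seen.

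Around C1q, 5 of 11 tested genes of the C1 complex, its inhibitor, receptors and substrates fell and 0 rose (median -0.38), many of them made in hepatocytes. C1s and C1r, the proteases that join C1q in C1, fell to 0.671-fold and 0.767-fold, Serping1, the C1 inhibitor, to 0.758-fold, C3 to 0.719-fold and Lrp1, an endocytic receptor, to 0.531-fold (limma-voom adjusted p from 1.33e-04 for Lrp1 and C3 to 0.0258 for C1r, which was named after its values were seen). The call of C1r ended without control 3 or 4 or NDEA 1, 2 or 3 (limma-voom adjusted p from 0.0587 to 0.120). With all 16 libraries in one fit Lrp1 was the 1 gene of the list still called, and C1s, C3, C1r and Serping1 were not (limma-voom adjusted p of 0.0743, 0.0998, 0.271 and 0.312). The chains C1qa, C1qb and C1qc were not called. Among complement receptors, Cr1l, a regulator related to CR1, rose 2.02-fold as 1 of 5 tested (median -0.24; limma-voom adjusted p = 0.0022), beside the fall of Vsig4.

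Other lists held 0 to 2 calls each in liver, where 6.61% of all tested genes were called. Lrp1 was the 1 of 11 scavenger receptors called besides the markers (median 0.17), Mfge8, a bridge for the uptake of dying cells, rose 1.48-fold as 1 of 14 genes of haem uptake and efferocytosis (median -0.06), and Fn1, fibronectin, fell to 0.755-fold as 1 of 9 monocyte and recruited-cell genes (median 0.23). Of 13 activation genes Arg1, an enzyme abundant in hepatocytes, rose 1.35-fold and Cd14 fell (median 0.015). The call of Arg1 ended without control 3 or 4 or NDEA 1, 2 or 3 (limma-voom adjusted p from 0.0768 to 0.197), and that of Mfge8 without control 2 (0.0510). With all 16 libraries in one fit Arg1, Mfge8 and Fn1 were not called (limma-voom adjusted p of 0.0996, 0.0638 and 0.229). Of 6 erythroblastic island genes 0 were called (median 0.31), with Hmox1 at 85.6 ± 17.3 CPM in NDEA liver and 60.2 ± 25.9 CPM in control liver (SD, n = 4 each) and Maea at a log2 fold change of -0.30.

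Markers of other cells in the same livers were as follows. MHC class II genes of antigen-presenting cells, a list that macrophages share, had 5 of 6 tested higher and 0 lower, and their summed level was 1588 to 1929 CPM in NDEA liver and 636 to 743 CPM in control liver (median log2 fold change 1.35). RT1-Db1, RT1-Da, RT1-Ba and Cd74 rose 2.60-, 2.51-, 2.50- and 2.35-fold (limma-voom adjusted p from 6.51e-08 to 2.78e-07), and 5 were also called with the mitochondrial covariate. The RT1 genes are members of a family whose copies can share reads. Proliferation genes had 9 of 13 higher, Mki67, Cdc20, Ube2c and Top2a first, with a summed level of 303 to 446 CPM in NDEA liver and 16.96 to 92.5 CPM in control liver (median 3.61), and 5 were called without control 1 or 3. Stellate cell markers had 2 of 10 higher, Col3a1 and Dcn, and 1 lower, Ecm1, and summed to 522 to 604 CPM in NDEA liver and 347 to 467 CPM in control liver (median 0.50). The call of Dcn ended when any 1 library but NDEA 3 was left out (limma-voom adjusted p from 0.0614 to 0.113), and that of Ecm1 when any but control 4 or NDEA 1 was (0.0519 to 0.0900). With all 16 libraries in one fit 0 stellate markers were called.

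Hepatocyte markers had 3 of 10 higher, Apoa1 and Ttr first, and 3 lower, Hnf4a and Cyp2e1 first (median -0.10). None was called of 9 sinusoidal endothelial markers (median -0.25; Lyve1 and Bmp2 the most abundant), 6 T and NK cell genes (median -0.13; Ccl5 and Prf1), 6 erythroid genes (0.034; Hba-a1 and Hbb), 4 osteoclast genes (0.60; Acp5 and Nfatc1), 2 neutrophil genes (-1.19; S100a8 and S100a9) and 1 B cell gene tested (0.46; Cd22). The T and NK sums, 39.1 to 56.5 CPM in NDEA liver and 33.7 to 58.4 CPM in control liver, overlapped, and so did the erythroid sums, 1148 to 3914 CPM in NDEA liver and 1593 to 3352 CPM in control liver. Sinusoidal endothelial sums did not overlap, at 362 to 416 CPM in NDEA liver and 428 to 452 CPM in control liver. The part of these cells in the values of Marco and Vsig4 was not tested. In marrow, 0 members of any of these lists were called (limma-voom).

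The genes whose pattern over the 8 liver libraries was most like that of Vsig4, among 6474 genes averaging a log2 CPM of 3 or more, were Notum, AC114343.1 and Lims2, with mean absolute differences in centred log2 CPM of 0.11, 0.16 and 0.16. Those most like Marco were Chd7, Dsp and Got1 (0.13 to 0.14). For the mean of the C1q chains they were Mt-nd2, Skp1 and Lyve1 in liver (0.040 to 0.056). None of the genes named for Marco or Vsig4 was on the macrophage lists, while Lyve1, named for C1q, was among the further Kupffer cell genes. So few genes out of 6474 cannot show whether macrophage genes share these patterns.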

How the data were processed

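Values were reads per gene, deposited by the authors as one table for the 16 libraries, made with a QuantSeq 3' kit per the labels' protocols. The authors used STAR and DESeq2, per the submitters' processing notes. For versions, counting tool, strand setting and build, nothing is stated by these sources. The deposited file is damaged: 12 of its 32635 lines were continuations and were rejoined, giving 32623 records of whole counts. Its unit was recorded as other than plain counts, so limma-voom (limma 3.58.1, R 4.3.3) was used. In 16313 records the authors' group totals equalled the group sums when both were put in order of size, with 0 mismatches. Which total belongs to which group was not compared.

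A gene was kept where 4 libraries (fewer where one left out made a group smaller) reached the CPM that 10 counts make in the median library, with a total of 15. TMM scaling (trims 0.3 and 0.05, log2 prior 0.5) was done over the libraries of each fit. For NDEA against control that was each tissue alone. For the treatment-by-tissue term, control liver against control marrow and the single fit it was both tissues together. The p-values were two-sided and adjusted by the Benjamini-Hochberg method over all tested genes. The method was tested on simulated data. The 10 markers and all lists were chosen with earlier results of these data known. Named besides the markers were up to 4 called genes per list by adjusted p, or the 2 most abundant where none was called, and the genes most alike in pattern; those for C1q in marrow are not reported here. List entries without a match in the table were not analysed here. Alternatives of scaling, filter, weights, block, covariate and left-out libraries are given in the closing section.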

Additional observations from a re-analysis of the deposited data

Results flagged for a closer look

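In 5 of 49 groups of 4 values examined (Dixon's test at the 95% level), 1 library stood apart from the other 3; chance gives about 1 in 20. Cd163 was 351 CPM in marrow control 1, the library with the fewest counts, above the other controls. Cd68 was 25.1 CPM in marrow control 3, below the other controls, the library in which Csf1r and Cd5l were also lowest among controls. C1qb was 139 CPM in liver NDEA 4, above the other NDEA livers. The Marco to Vsig4 count ratio was 2.21 in liver control 2 and the C1qb to C1qc ratio 1.17 in the same library, both above the other controls. No cause was tested.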

How the results depend on the processing

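The 2 liver calls, Marco and Vsig4, held under every alternative of scaling, filter, trend, quality weights, replicate block and a single fit of all 16 libraries. With the mitochondrial share as a covariate 0 markers and 9 rather than 41 of 183 tested list genes were called (30 of 236 in the single fit), and with a library left out 0 to 2 markers and 31 to 40 list genes, 0 without NDEA 2. In marrow the count of 0 became 1, Csf1r, with the replicate block (289 genes in all) and without control 3, NDEA 3 and NDEA 4, and was 0 to 1 with a library left out. The tissue difference count was 0, and 0 to 1 with a library left out. For control liver against control marrow 4 to 8 markers were called with a library left out, 8 with library totals alone and with quality weights, and 7 otherwise. Library totals alone moved the median of all genes there to -0.34. The same-numbered NDEA and control libraries did not deviate together (correlations -0.011 to 0.013 in liver and -0.013 to 0.061 in marrow), so the numbers are not taken as pairs; besides Csf1r in marrow the block changed no call of a marker.

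Directions of small estimates turned; the cause was not tested. With library totals alone, which moved the liver median of all genes to 0.12 (390 higher, 239 lower, against 277 and 362), the log2 fold changes were Clec4f 0.080, Cd163 0.061, C1qc 0.089 and Csf1r 0.069, and Csf1r was -0.12 between tissues. With quality weights C1qc was 0.0027. With the covariate the liver values were Clec4f 0.0066, C1qb -0.26, C1qc 0.086, Csf1r 0.077 and Alb 0.038 (-0.25 without it), and the marrow values Cd68 0.17, Cd5l 0.025 and C1qb 0.089. C1qb in marrow was 0.19 without NDEA 3 and 4 and 0.12 without control 3 as well. With a library left out, liver spans were -0.10 to 0.032 for Clec4f, -0.24 to 0.15 for Cd163, -0.078 to 0.11 for C1qb, -0.066 to 0.039 for C1qc and -0.22 to 0.11 for Csf1r. Cd163 spanned -0.016 to 0.24 in marrow and -0.33 to 0.017 for the tissue difference, and Csf1r -0.29 to 0.37 between control tissues. The fit without control 3, NDEA 3 and NDEA 4 and the counts of list genes were added after seeing the data. Low counts limit Csf1r in NDEA marrow (46 to 97 per library).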
